A study of Mus musculus with 40 samples.

Results

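Scn4b and 3 other genes of sodium channel subunits, Scn4a, Scn7a and Scn10a, are described here across the hearts of male mice that differed in maternal and post-weaning diet. The members were chosen by name, and Scn4b because it was known from these same arrays to be among the probes that rose most with the high-fat diet eaten after weaning. Its difference between post-weaning diets is therefore given as a description, with no test, and likewise for the other members. Of the 4 genes, 3 had a probe in the annotation used, 1 each, out of 25697 probes of 16593 named genes. No probe annotated to Scn4a was found, and Scn4a was not analysed here. The probes of Scn4b, Scn7a and Scn10a all passed the filter on dim probes (brighter than the array median on 20 or more of the 40 arrays), as did 12645 probes in all, which were tested.

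Hearts were taken from 40 C57BL/6J males at 9 weeks of age after a fast of 4 hours, and the RNA of each was hybridised to 1 array of an Illumina MouseRef-8 v2.0 beadchip. Dams ate a high-fat low-carbohydrate diet (HF) or a low-fat high-carbohydrate diet (LF) from before mating, and coconut oil was the main fat of both diets. At weaning, on day 21, male offspring were moved to 1 of the same diets. Groups are named with the maternal diet first: HF_HF, LF_HF, HF_LF and LF_LF, with 10 hearts each. Values are quantile-normalised intensities on a linear scale, and differences are HF minus LF on the log2 scale with their SE.

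Voltage-gated sodium channels let sodium into the heart muscle cell at the start of each beat. The pore is an alpha subunit, and beta subunits are small membrane proteins with an immunoglobulin domain that bind it and alter its gating and its place in the membrane. Scn4b encodes the fourth beta subunit, which is joined to the alpha subunit by a disulphide bond, is abundant in heart, and is known in neurons for its part in resurgent sodium current. Human SCN4B variants have been linked to long QT syndrome. Scn4a encodes the alpha subunit of skeletal muscle, Scn10a a tetrodotoxin-resistant alpha subunit of sensory neurons, and Scn7a an atypical channel that senses extracellular sodium in glia. In human, the SCN10A locus is associated with cardiac conduction.

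The promoter of Scn4b is shown because its probe carried the difference described below. The window runs from 250 bases before to 50 bases after the RefSeq start of the gene (GRCm38.p6, chr9:45138374-45138673, plus strand, 300 bases, 5′ to 3′). It was searched on both strands for TGTTCT (a core of the glucocorticoid receptor site), CACGTG (an E-box bound by clock proteins), AGGTCA (a core of nuclear receptor sites), TATAAA (the element bound by the TATA-binding protein), CCAAT (bound by nuclear factor Y), AGGTGTGA (T-box site), GGGCGG (GC box) and the MEF2 site, taken as CTA followed after 4 bases of any kind by TAG. Capitals mark the matches, which do not overlap.

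Scn4b: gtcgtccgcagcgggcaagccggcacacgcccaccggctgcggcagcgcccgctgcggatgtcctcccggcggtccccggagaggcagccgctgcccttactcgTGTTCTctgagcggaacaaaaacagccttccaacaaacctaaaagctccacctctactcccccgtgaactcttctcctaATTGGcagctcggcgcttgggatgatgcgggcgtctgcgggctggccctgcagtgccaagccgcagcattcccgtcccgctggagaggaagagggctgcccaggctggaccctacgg

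The window held 1 TGTTCT, which began 146 bases before the start, and 1 CCAAT box on the opposite strand (ATTGG), which began 67 bases before it. Of 32851 promoter windows of the same length in the mouse, 19.0% held TGTTCT and 37.4% held a CCAAT box, so both are common letters. The other 6 motifs had no match in this window. The windows of Scn4a and Scn10a held none of the 8 motifs, and that of Scn7a held 1 GC box, as did 35.7% of all windows. Scn4a and Scn10a lie on the minus strand, and their windows lay inside the gene record, not at its outer end. The Scn4a window reached 106349640 and its gene 106365559, and the Scn10a window reached 119719282 and its gene 119719322. The Scn4b window was rich in CpG, with 26 CpG against a median of 7 over all windows, and more than 83.1% of them. The windows of Scn10a, Scn4a and Scn7a held 11, 4 and 3 CpG. These counts describe the sequence and say nothing of which factors bind it. Scn4b and Scn10a both lie on chromosome 9, Scn7a on chromosome 2 and Scn4a on chromosome 11.

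Scn4b was bright in every heart, above the median of the array on 40 of 40 arrays, and its mean log2 intensity exceeded that of 87.1% of all probes. The lowest, median and highest intensities were 492.4, 573.0 and 604.5 in HF_HF hearts. In LF_HF hearts they were 478.6, 547.9 and 754.6, so the range of the HF_HF hearts lay within that of the LF_HF hearts. In HF_LF hearts they were 201.3, 250.2 and 305.1. In LF_LF hearts they were 183.3, 287.2 and 543.4, and the highest of these hearts stood well apart from the next at 321.2. All 20 HF-fed hearts had at least 478.6, while 19 of the 20 LF-fed hearts had at most 321.2. With that single LF_LF heart as the exception, the post-weaning diets did not overlap. Scn4b was chosen for this difference, and the share of all tested probes that separate as fully was not counted.

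**Figure D1:**
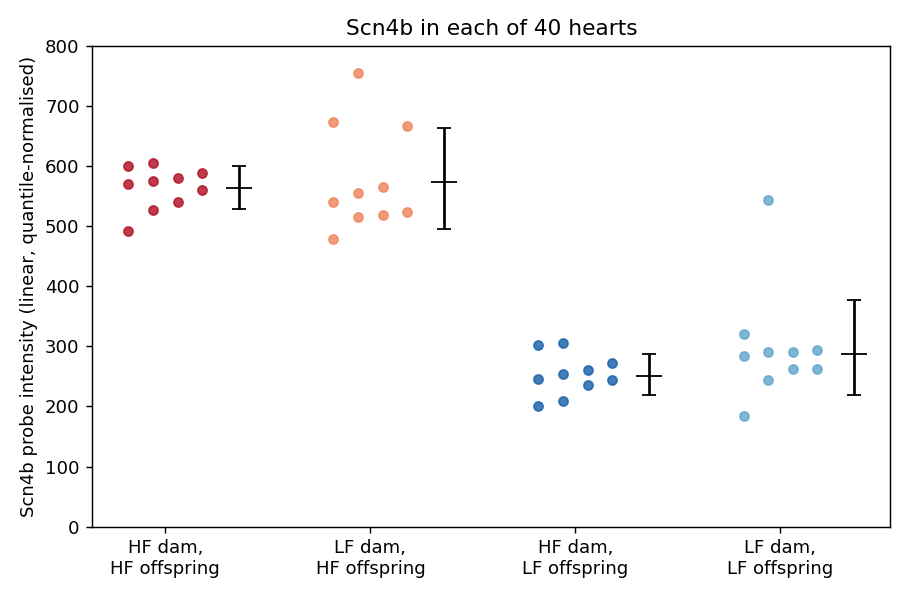
Scn4b probe intensity (linear scale) in each of 40 hearts, 1 point a heart, by maternal and post-weaning diet; the black mark and bar give the geometric mean and 1 SD of the log2 values (n = 10 each). The 20 HF-fed hearts sit at 478.6 or above, and 19 of 20 LF-fed hearts at 321.2 or below, with 1 LF_LF heart at 543.4.

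Among offspring of HF-fed dams, Scn4b averaged 9.14 ± 0.09 in HF_HF hearts and 7.97 ± 0.20 in HF_LF hearts (log2 intensity, SD, n = 10 each). The difference was 1.17 (SE 0.07, 95% interval 1.02 to 1.31), or 2.24-fold, and every HF_HF heart was above every HF_LF heart. Among offspring of LF-fed dams, Scn4b averaged 9.16 ± 0.21 in LF_HF hearts and 8.17 ± 0.39 in LF_LF hearts (log2 intensity, SD, n = 10 each). The difference was 1.00 (SE 0.13, 95% interval 0.73 to 1.27), or 2.0-fold, and all 10 LF_HF hearts were above the median of the LF_LF hearts. Without the LF_LF heart at 543.4, the other 9 averaged 8.06 ± 0.24 and the difference was 1.10. Averaged over both kinds of dam, Scn4b differed by 1.08 (SE 0.08, 2.12-fold).

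These differences are those for which the gene was chosen. By size, the Scn4b probe had rank 3 of the 12645 probes in offspring of HF-fed dams, behind 2 probes of Mup2, a major urinary protein of liver. Their differences of 1.20 and 1.19 had SEs of 0.72 and 0.71, against 0.07 for Scn4b. The next probe below Scn4b was Mup6 at 1.15 (SE 0.73). With LF-fed dams it had rank 4, behind Mup2 at 1.14 (SE 0.93) and 2 probes of Tfrc, the transferrin receptor, both at 1.05 (SE 0.22 and 0.20). In offspring of HF-fed dams, 0.862% of the tested probes passed an adjusted p of 0.05 (109 probes, 0.482% higher and 0.38% lower). In offspring of LF-fed dams, 2.72% passed (344 probes, 1.29% higher and 1.43% lower). In the averaged comparison, 7.49% passed (947 probes, 3.53% higher and 3.96% lower).

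The males had been divided between diets within a breeding cage, so Scn4b could be compared among animals raised together. The 40 animals came from 12 cages, 6 of each maternal diet, and 5 cages gave offspring to both post-weaning diets. A breeding cage held 1 male with 2 females, so its pups need not share a dam. This is again the contrast for which the gene was chosen, so the values are a description and no independent support. Within these 5 cages, Scn4b was higher in the HF-fed offspring by 1.02 to 1.20 on the log2 scale. In cage 20, of HF-fed dams, the geometric mean was 563.1 in 3 HF-fed hearts and 244.3 in 1 LF-fed heart. In cage 10 it was 540.2 in 1 HF-fed heart and 267.2 in 2 LF-fed hearts, the smallest of the 5 differences. In cage 4, of LF-fed dams, it was 617.0 in 2 HF-fed hearts and 273.6 in 3 LF-fed hearts. The other 2 cages lay between the extremes, at 2.10-fold in cage 11 and 2.25-fold in cage 23. Over all cages, the HF-fed means ran from 540.2 to 617.0 and the LF-fed means from 231.1 to 359.7, without overlap. The highest LF-fed mean was that of cage 8, which held the heart at 543.4 beside cage mates at 294.2 and 291.0.

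**Figure D2:**
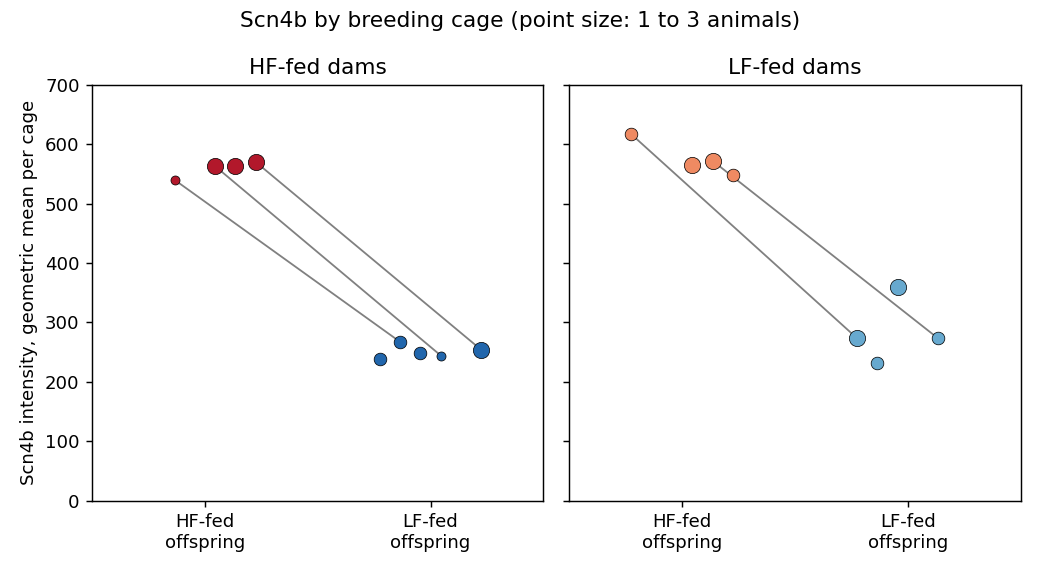
Geometric mean of Scn4b intensity per breeding cage (linear scale), HF-fed offspring left and LF-fed offspring right, with a panel for each maternal diet; lines join the 5 cages that gave offspring to both diets. HF-fed cage means lie between 540.2 and 617.0, LF-fed cage means between 231.1 and 359.7.

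The maternal effect on Scn4b, which played no part in choosing the gene, did not pass the test. In HF-fed offspring, the mean log2 intensity was 9.14 in HF_HF hearts and 9.16 in LF_HF hearts, a difference of -0.03 (SE 0.07, 95% interval -0.17 to 0.12, limma adjusted p = 0.904). Of all probes, 0% passed in this comparison: 0 at an adjusted p of 0.05, and 1429 of 12645 at an unadjusted p of 0.05. In LF-fed offspring, it was 7.97 in HF_LF hearts and 8.17 in LF_LF hearts, a difference of -0.19 (SE 0.13, 95% interval -0.46 to 0.07, limma adjusted p = 0.996), where 0.0395% of probes passed (0.0316% higher and 0.00791% lower). The HF_LF median was the lower of the pair, and 8 of 10 HF_LF hearts were below the LF_LF median. Without the heart at 543.4 this difference was -0.09, and without its whole cage, cage 8, it was -0.05. Averaged over both post-weaning diets, the maternal effect was -0.11 (SE 0.08, limma adjusted p = 0.695), where 0.388% of probes passed (0.277% higher and 0.111% lower).

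Atrial marker signal differed widely between hearts, also within a group. Summed over the 19 probes of atrial markers it ran from 8339 to 92931 in HF_HF hearts (median 49809) and from 10099 to 55126 in LF_HF hearts (median 25201). It ran from 9166 to 103130 in HF_LF hearts (median 76907) and from 8405 to 100670 in LF_LF hearts (median 12525). With the atrial score as a covariate, the maternal difference of Scn4b in LF-fed offspring was -0.05, and the post-weaning differences were 1.14 in offspring of HF-fed dams and 1.00 in offspring of LF-fed dams. None of the 15 tested probes of atrial markers passed in any of the 7 comparisons (limma). Ventricular markers were high in all hearts, with sums of 113790 to 140840 in HF_HF, 123610 to 137960 in LF_HF, 123520 to 138260 in HF_LF and 121730 to 140540 in LF_LF hearts. Of the 10 probes of ventricular markers, 1 passed a test, that of Irx4, a ventricular transcription factor. It rose in the averaged post-weaning comparison by 0.18 (limma adjusted p = 0.0388), in the direction of Scn4b, where 3.53% of all probes rose. It did not pass without the 10 hearts that carried signal of liver, skeletal muscle or pancreas. Of the 10 tested probes of smooth muscle and pericyte markers, 1 fell in offspring of LF-fed dams, where 1.43% of all probes fell. It was the pericyte marker Cspg4, which fell by 0.15 (limma adjusted p = 0.0447), and did not pass without those hearts. The part of these markers in the level of Scn4b was not tested. In whole tissue, fewer cells of a type and less RNA per cell cannot be told apart.

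The maternal comparisons were repeated over cages in place of animals, and neither passed. In HF-fed offspring, the mean of 4 cage means was 9.13 for HF-fed dams and 9.17 for LF-fed dams (exact two-sided permutation test, p = 0.343, adjusted p = 0.515 over 6 tests of the 3 genes). In LF-fed offspring, the mean of 5 cage means was 7.97 for HF-fed dams and that of 4 cage means was 8.13 for LF-fed dams (exact p = 0.222, adjusted p = 0.515). The smallest p these designs allow is 0.0286 in HF-fed and 0.00794 in LF-fed offspring. By geometric mean, the groups stood in the order LF_HF (573.5), HF_HF (562.9), LF_LF (287.0) and HF_LF (251.0). LF_HF and HF_HF differed by less than the spread between hearts, as did LF_LF and HF_LF.

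Whether the post-weaning effect on Scn4b changed with the maternal diet was tested directly. The effect was 1.17 with HF-fed dams and 1.00 with LF-fed dams. The interaction was 0.17 (SE 0.15, 95% interval -0.14 to 0.47, limma adjusted p = 0.943). It was 0.06 without the heart at 543.4 and 0.03 without its cage. Of all probes, 0% passed for the interaction: 0 at an adjusted p of 0.05, and 431 at an unadjusted p of 0.05.

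**Figure D3:**
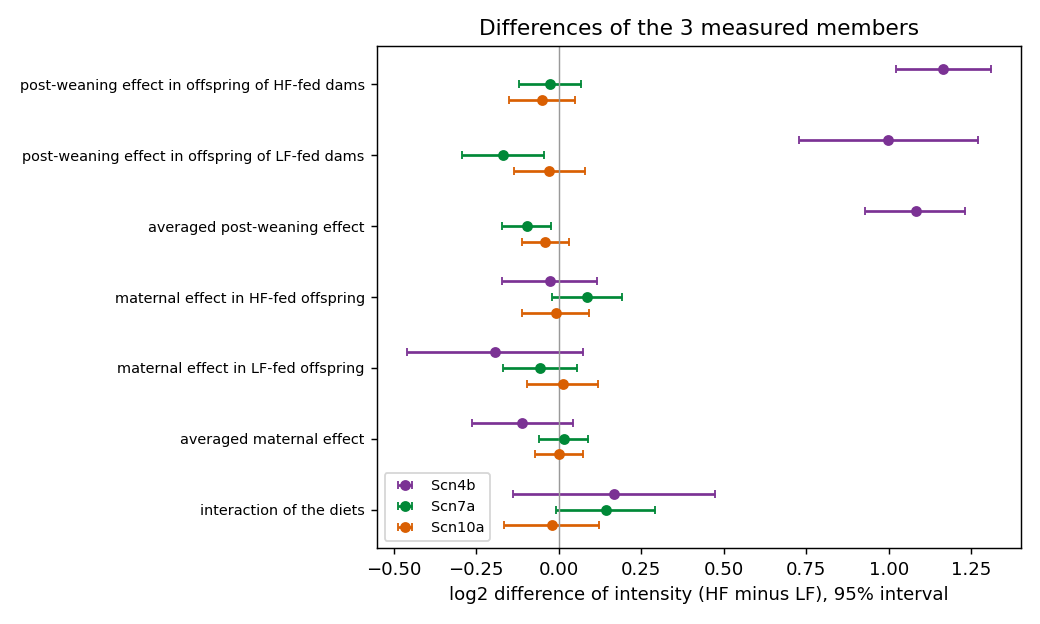
Differences of log2 intensity (HF minus LF) of Scn4b, Scn7a and Scn10a in 7 comparisons, with points for the estimate and bars for the 95% interval. The post-weaning rows are the contrasts for which Scn4b was chosen, and all members are described there with no test. Scn4b differs by 1.00 to 1.17 between post-weaning diets, while its maternal differences lie between -0.19 and -0.03.

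The spread of Scn4b among hearts of a group differed between groups. The SD of the log2 intensity was 0.09 in HF_HF and 0.21 in LF_HF hearts, against 0.20 in HF_LF and 0.39 in LF_LF hearts. Without the heart at 543.4, the SD of LF_LF hearts was 0.24. Within the HF_HF group all 10 hearts lay within 492.4 and 604.5, whereas 3 LF_HF hearts, at 666.3, 673.3 and 754.6, exceeded every HF_HF heart. These 3 hearts came from 3 different cages.

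The arrays fell into 2 sets, read from the first principal component of 13052 untested dim probes, and each group had hearts in both. In offspring of HF-fed dams, the post-weaning difference of Scn4b was 1.19 in the first set (6 HF_HF and 7 HF_LF hearts) and 1.13 in the second (4 and 3 hearts). In offspring of LF-fed dams it was 1.16 in the first set (7 LF_HF and 5 LF_LF hearts) and 0.78 in the second (3 and 5 hearts), which held the heart at 543.4. The maternal difference in LF-fed offspring was -0.08 in the first set and -0.31 in the second, and in HF-fed offspring -0.05 and 0.05. Signal of liver, skeletal muscle or pancreas stood out in 10 hearts, 2 HF_HF, 3 LF_HF, 3 HF_LF and 2 LF_LF. Without them the post-weaning differences of Scn4b were 1.18 in offspring of HF-fed dams and 1.00 in offspring of LF-fed dams.

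Scn4b was then set against the other probes that responded to the post-weaning diet. The 108 probes that passed in offspring of HF-fed dams, members left out, were turned by their direction there and averaged for each heart, as a shift from the mean of the HF_LF hearts. This measure was added after the values were seen. In offspring of LF-fed dams, which had no part in choosing the 108 probes, the shift ran from 0.333 to 0.544 in LF_HF hearts (median 0.435) and from 0.0207 to 0.262 in LF_LF hearts (median 0.119), without overlap. In the groups that chose the probes it ran from 0.301 to 0.437 in HF_HF and from -0.0903 to 0.101 in HF_LF hearts. The LF_LF heart with Scn4b at 543.4 had a shift of 0.159, within the range of its group and below every LF_HF heart. By the other probes it therefore stood with the LF-fed hearts, and by Scn4b with the HF-fed hearts.

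**Figure D4:**
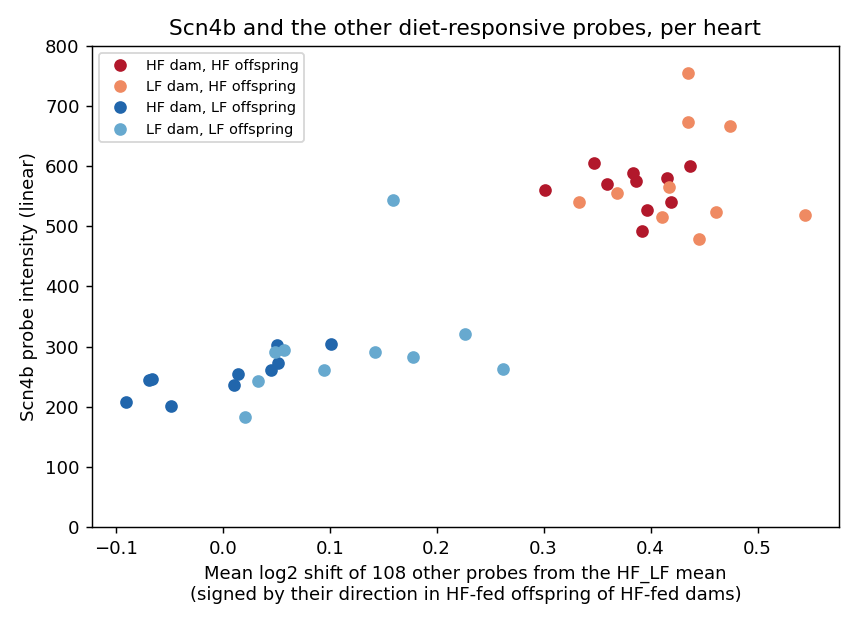
Scn4b intensity (linear) of each heart against the mean log2 shift of 108 other probes that passed the post-weaning test in offspring of HF-fed dams, signed by direction, with colours for the 4 groups. LF_HF hearts lie at shifts of 0.333 to 0.544 and LF_LF hearts at 0.0207 to 0.262, and the LF_LF heart with Scn4b at 543.4 lies at 0.159.

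Scn7a was dim but above the median of the array on all 40 arrays. Its lowest, median and highest intensities were 93.6, 100.7 and 114.3 in HF_HF hearts. In LF_HF hearts they were 84.7, 96.5 and 112.3. In HF_LF hearts they were 88.9, 102.7 and 113.0, and in LF_LF hearts 91.5, 107.9 and 127.0. The 4 groups overlapped, and the array medians lay between 79.2 and 79.5.

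The post-weaning difference of Scn7a was -0.03 (SE 0.04, 95% interval -0.12 to 0.07) in offspring of HF-fed dams. In offspring of LF-fed dams it was -0.17 (SE 0.06, 95% interval -0.29 to -0.05), a fold of 0.890, and 8 of 10 LF_HF hearts were below the LF_LF median. With the fifth percentile of each array subtracted as background, the difference in offspring of LF-fed dams was -0.41. Within cages the difference ran from -0.22 to 0.10. Scn7a was higher in the HF-fed offspring in 2 of 5 cages, which were of HF-fed dams. With LF-fed dams the difference was -0.157 in cage 4 and -0.222 in cage 11, in the direction of the group difference. With HF-fed dams it was 0.096 in cage 10, 0.103 in cage 23 and -0.108 in cage 20, without a common direction.

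The maternal difference of Scn7a was 0.09 (SE 0.05, limma adjusted p = 0.547) in HF-fed offspring, where 9 of 10 HF_HF hearts were above the LF_HF median. Over cages it was 0.12, with an exact p of 0.0286, the smallest that 4 against 4 cages allow, and an adjusted p of 0.172 over the 6 tests. In LF-fed offspring it was -0.06 (SE 0.05, limma adjusted p = 0.996). The interaction was 0.14 (SE 0.07, 95% interval -0.01 to 0.29, unadjusted p = 0.0616, limma adjusted p = 0.943).

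Scn10a lay close to the median of the array, above it on 29 of 40 arrays. The lowest, median and highest intensities were 76.8, 82.8 and 93.5 in HF_HF, and 75.9, 86.7 and 91.3 in LF_HF hearts. They were 81.7, 85.3 and 101.8 in HF_LF, and 75.1, 88.2 and 97.5 in LF_LF hearts. How much of this signal is background is unknown, since no detection call entered the analysis. The post-weaning differences were -0.05 (SE 0.05) in offspring of HF-fed dams and -0.03 (SE 0.05) in offspring of LF-fed dams. The maternal differences were -0.01 (SE 0.05, limma adjusted p = 0.959) in HF-fed and 0.01 (SE 0.05, limma adjusted p = 0.996) in LF-fed offspring. The interaction was -0.02 (SE 0.07, limma adjusted p = 0.980). The 95% intervals of the pairwise differences of Scn10a lay within -0.15 and 0.12.

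**Figure D5:**
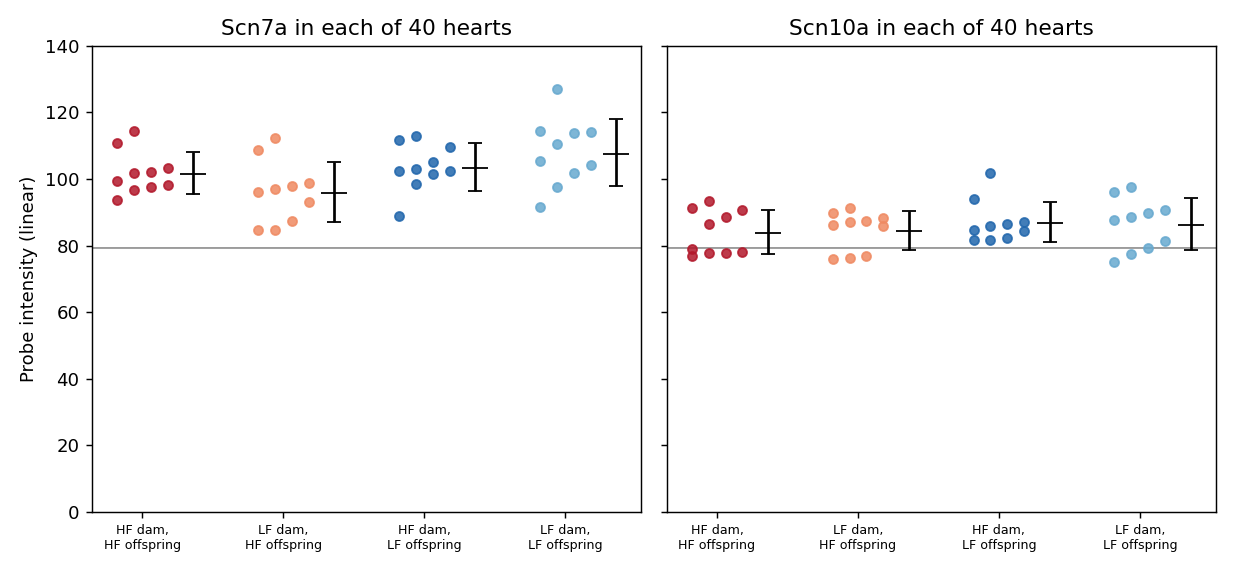
Intensity (linear scale) of Scn7a and Scn10a in each of 40 hearts by group; the black mark and bar give the geometric mean and 1 SD of the log2 values (n = 10 each), and the grey line the array medians (79.2 to 79.5). Both probes overlap between all groups, Scn7a between 84.7 and 127.0 and Scn10a between 75.1 and 101.8.

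Scn7a is known from glia and Schwann cells, and Scn10a from sensory neurons, so markers of these cells were read beside them. Of 14 Schwann cell and nerve markers 10 had a probe and 3 were tested (Cnp, Mbp and Uchl1), and the summed intensity of all 15 probes was 1145 to 1281 in HF_HF, 1094 to 1254 in LF_HF, 1133 to 1310 in HF_LF and 1154 to 1310 in LF_LF hearts. The glial marker S100b was not above the array median on any array, nor were the neurofilament genes Nefl and Nefm. Of 10 markers of sensory and other neurons 9 had a probe and 3 were tested (Stmn2, Tac1 and Dbh). Of these only Dbh, the noradrenaline-forming enzyme of sympathetic nerves, passed a test, with a fall in the averaged post-weaning comparison (-0.21, limma adjusted p = 0.0426, but 0.0767 with no filter on dim probes). It was 1 of 3 probes, where 3.96% of all probes fell. The part of these markers in the level of Scn7a and Scn10a was not tested.

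Other sodium channel subunits gave no signal that could be tested. Of the further alpha and beta subunit genes looked for, 5 had a probe and none of their 6 probes passed the filter. These were the alpha subunits Scn1a, Scn8a and Scn11a, known mainly from neurons, and the beta subunits Scn2b and Scn3b. Their intensities over the 40 hearts lay between 50.3 and 90.4, with at most 2 of 40 arrays above the median. No annotated probe was found for Scn2a, Scn3a and Scn9a, and they were not analysed here.

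Genes of proteins that bind, anchor or modify cardiac sodium channels were tested next. Of 25 such genes, 17 were tested with 30 probes, and 0 passed in any of the 4 pairwise comparisons (limma), where 0.862% and 2.72% of all probes passed between post-weaning diets and 0% and 0.0395% between maternal diets. The median difference of the 17 genes, each taken as the mean of its probes, was -0.02 between post-weaning diets in offspring of HF-fed dams. In offspring of LF-fed dams it was 0.01. The medians over all single probes were -0.000308 and -0.00199. In the averaged post-weaning comparison, 1 probe of Slmap, which encodes a sarcolemmal membrane protein, rose by 0.22 (limma adjusted p = 0.00746). It was 1 of 30 probes, where 7.49% of all probes passed. The other tested probes of Slmap differed by 0.12 and 0.07 and did not pass (limma adjusted p = 0.203 and 0.369). In the averaged maternal comparison, 2 of the 30 probes fell, where 0.111% of all probes fell. They were 2 of 3 probes of Cxadr, an intercalated disc protein that also serves as a virus receptor. They fell by 0.21 and 0.18 (limma adjusted p = 0.0470 and 0.00546). The first of these no longer passed with cage as a random block (limma adjusted p = 0.0739), and neither passed without the 10 hearts that carried other tissues' signal (limma adjusted p = 0.117 and 0.175).

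Transcription factors known to act on cardiac sodium channel genes, among them Tbx5, Nkx2-5, Gata4 and Hey2, were tested with 16 probes of 11 genes. None passed in any of the 7 comparisons (limma). The median difference of the 11 genes between post-weaning diets, each taken as the mean of its probes, was 0.02 in offspring of either kind of dam. Of 18 other genes of sodium transport across the cell membrane, 8 were tested with 12 probes. Slc12a2, a cotransporter of sodium, potassium and chloride, rose in offspring of LF-fed dams by 0.25 on 1 of its 2 probes (limma adjusted p = 0.0129), while the other differed by 0.20 (limma adjusted p = 0.0547). Neither passed in offspring of HF-fed dams, with 0.18 and 0.14 (limma adjusted p = 0.315 and 0.733). It rose in the averaged post-weaning comparison by 0.21 and 0.17 on its 2 probes (limma adjusted p = 0.000571 and 0.0287). Of the 12 probes, 1 thus rose in offspring of LF-fed dams and 2 in the averaged comparison, where 1.29% and 3.53% of all probes rose. The pairwise call no longer passed without the 10 hearts that carried other tissues' signal (0.24, limma adjusted p = 0.104). The beta subunits of the sodium pump (Atp1b1, Atp1b2 and Atp1b3) and the sodium-calcium exchanger Slc8a1 were tested on the same list, and no probe of theirs passed. These 3 lists were drawn up with earlier results of these data known.

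Among markers of the conduction system, 2 genes fell with the post-weaning HF diet. Kcne1, a small membrane subunit of a potassium channel and a marker of conduction tissue, fell by 0.56 in offspring of HF-fed dams (limma adjusted p = 0.0193) and by 0.46 in the averaged post-weaning comparison (limma adjusted p = 0.000177), on the 1 of its 4 probes that was tested. Etv1, a transcription factor of conducting myocytes, fell on both probes in offspring of LF-fed dams, by 0.23 and 0.25 (limma adjusted p = 0.0257 and 0.0266). Without the 10 hearts that carried other tissues' signal, neither gene passed in these pairwise comparisons (limma adjusted p = 0.146 for Kcne1, 0.0822 and 0.207 for Etv1). Of the 13 probes of conduction markers tested, 1 fell in offspring of HF-fed dams, 2 fell with LF-fed dams and 3 fell in the averaged comparison, and 0 rose, where 0.38%, 1.43% and 3.96% of all probes fell. Tbx3 and Irx3 stood both on this list and on that of the regulators. The summed intensity of all 22 probes of the list was 3703 to 6522 in HF_HF, 3439 to 4472 in LF_HF, 3680 to 6950 in HF_LF and 3817 to 6890 in LF_LF hearts. The part of conduction tissue in the level of Scn4b was not tested.

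The probes whose pattern was most like that of Scn4b were sought after the mean of each group had been removed, so that the diets played no part. Over the 40 hearts, Pearson correlations with Scn4b ran from -0.753 to 0.745 over the tested probes, with a median of 0.0602. They are given as a description, since all probes share the normalisation of the arrays. The highest were Saraf (0.745), which limits calcium entry through store-operated channels, Trim54 (0.739), a ring-finger protein of striated muscle, and Gpat3 (0.733) and Gpam (0.723), which both catalyse the first step of triglyceride synthesis. Carnmt1 (0.702), a carnosine methyltransferase, and Ushbp1 (0.694) followed. The lowest were Dstn (-0.753), an actin-depolymerising protein, Lmo4 (-0.687), a transcriptional adaptor, and Selenos (-0.679), a selenoprotein of the endoplasmic reticulum.

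The heart at 543.4 weighed on this order. Without it the correlation of Gpat3 was 0.764, that of Trim54 0.696 and that of Gpam 0.645, while that of Carnmt1 was 0.490 and that of Ushbp1 0.501. With the 2 sets of arrays also removed, the 9 correlations were between 0.697 and 0.786 for the first 6 and between -0.728 and -0.646 for the last 3. Between post-weaning diets, the Saraf probe rose in offspring of HF-fed dams by 0.32 (limma adjusted p = 0.0132) and differed by 0.15 in offspring of LF-fed dams (limma adjusted p = 0.276), and the other 8 probes did not pass in either. In the averaged comparison, on the same probes, Gpam rose by 0.21 (limma adjusted p = 0.00534), Gpat3 by 0.19 (limma adjusted p = 0.00987) and Saraf by 0.23 (limma adjusted p = 0.00295), while Selenos fell by 0.16 (limma adjusted p = 0.0185). Of all tested probes, 0.482% rose in offspring of HF-fed dams, and in the averaged comparison 3.53% rose and 3.96% fell.

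Within a group, Scn4b was set against body weight at 3 weeks, later body weight and fasting glucose, 12 relations with 10 animals each. None passed after adjustment. The labels call the later weight a weight at weaning, but its values were far above the weight at 3 weeks. It was therefore read as a later weight of unknown age. The permutations shuffled single animals, although cage mates are not independent, so the p-values take no account of cage. By Pearson's r the strongest was with weight at 3 weeks in LF_LF animals (Pearson r = -0.621, permutation p = 0.0257, adjusted p = 0.308, Spearman rho = -0.636, permutation p = 0.0540, adjusted p = 0.164). Without the 2 animals farthest from the median weight, r was -0.433, and without the animal highest in Scn4b it was -0.473. With later weight, r was 0.562 in HF_HF animals (permutation p = 0.0909, adjusted p = 0.335) and rho 0.685 (permutation p = 0.0348, adjusted p = 0.164), the strongest by Spearman's rho. In LF_HF animals r was 0.490 (permutation p = 0.143, adjusted p = 0.335) and rho 0.636 (permutation p = 0.0542, adjusted p = 0.164). In HF_LF animals r was 0.305 (permutation p = 0.391, adjusted p = 0.469) and rho 0.139 (permutation p = 0.706, adjusted p = 0.706), and without the animal highest in Scn4b r was 0.710. In LF_LF animals r was -0.472 (permutation p = 0.165, adjusted p = 0.335) and rho -0.636 (permutation p = 0.0545, adjusted p = 0.164), and r was -0.103 without the 2 animals farthest in weight but -0.723 without the animal highest in Scn4b. The difference in sign between LF_LF and the other groups was not tested. With glucose, r was 0.376 to 0.433 in HF_HF, LF_HF and HF_LF animals and -0.445 in LF_LF animals, with adjusted permutation p of 0.335 to 0.375 for r and 0.276 to 0.350 for rho. With weight at 3 weeks, r in the other 3 groups was -0.0525 to 0.425, with adjusted permutation p of 0.335 to 0.937 for r and 0.517 to 0.610 for rho.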

How the data were processed

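RNA of 40 mouse hearts, 1 array per animal, was read on Illumina MouseRef-8 v2.0 beadchips. The authors deposited linear intensity values from BeadStudio, whose version is not given in the sources used here. They had applied quantile normalisation across the 40 heart arrays. The intensities ran from 47.5 to 31454.1. Precision is limited by how many arrays a group has. Symbols came from the probe annotation through Entrez identifiers and the RefSeq gene table of GRCm38.p6 (23978 probes with a symbol, 1719 without). Promoters came from RefSeq, and 4 of 4 members matched.

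Intensities were converted to log2, and probes above the array median on at least 20 of 40 arrays were tested (12645) in limma 3.58.1 (R 4.3.3), using a trended prior variance and Benjamini-Hochberg adjustment over all tested probes. Pairwise comparisons used their own 20 arrays, while the interaction and the averaged effects used all 40. Body relations used 100000 resamples in SciPy 1.17.1 under Python 3.11.15, and plots matplotlib 3.10.9. The fits were tested on simulated data with independent noise for each probe and array. The simulation held no likeness between cage mates and no sets of arrays, so it cannot show how these affect the calls. Animals were separate mice, but cage mates are not independent, and cage was left out of the main fit. Replicate numbers are animal numbers and pair no samples.

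The members, the gene lists and the tests were chosen with earlier results of these data known. The other genes named are list members with an adjusted p under 0.05, up to 4 a list, and the 6 highest and 3 lowest correlations with Scn4b. Mup2, Mup6 and Tfrc were named after their values were seen. Alternatives were other filters, no variance trend, background subtraction, cage as a random block, the 2 sets of arrays, hearts with signal of another tissue left out (liver, skeletal muscle or pancreas marker score above 1.5, while 4 further hearts with an adipocyte score above 1.5 were kept), an atrial covariate, all arrays in 1 fit, and each animal and each cage left out.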

Additional observations from a re-analysis of the deposited data

Results flagged for a closer look

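Of 12 sets of 10 hearts (3 members in 4 groups), 1 held a heart far from the others, where chance would flag about 1 in 20. Scn4b was 543.4 in an LF_LF heart of cage 8, against 321.2 in the next LF_LF heart, and the gap was 0.484 of the range of the group on the log2 scale. The 9 other LF_LF hearts had a geometric mean of 267.4, and the lowest LF_HF heart had 478.6.

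The same heart stood apart in genes whose pattern was like that of Scn4b, which had been found with it included. Carnmt1 was 134.6 in it, against 73.6 to 101.3 in the other LF_LF hearts and 78.0 to 96.3 in LF_HF hearts. Gpam was 292.0, against 183.9 to 243.1 in the other LF_LF hearts, and Dstn was 1645, against 2126 to 4244. All 9 of these genes were at an extreme of the LF_LF group in this heart. Its sum of atrial markers was 10168 and its sum of ventricular markers 126670, both within the range of LF_LF hearts. Its atrial score (-1.75) and its sum of fibroblast markers (14637) were the lowest of all 40 hearts, and its sum of endothelial markers (9215) was the highest of the LF_LF hearts. Their part in its Scn4b level was not tested.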

How the results depend on the processing

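The post-weaning difference of Scn4b kept its direction under all alternatives run, between 1.13 and 1.40 in offspring of HF-fed dams and between 0.78 and 1.19 in offspring of LF-fed dams. With 1 animal left out it was 1.13 to 1.20 and 0.93 to 1.10, and with 1 cage left out 1.15 to 1.19 and 0.92 to 1.14. The maternal difference of Scn4b in HF-fed offspring was 0.0481 within the second set of arrays, against -0.0270 with all arrays, and -0.0560 to 0.0170 with 1 animal or cage left out. In LF-fed offspring it was -0.27 to -0.05 with 1 animal or cage left out, and the lowest adjusted p of any alternative was 0.604.

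Differences near 0 changed sign. For Scn10a the maternal difference in LF-fed offspring was -0.0125 with the array set as a term, -0.0445 within the first set, -0.0397 with the atrial covariate, -0.0103 without the LF_LF heart highest in Scn4b (chosen after seeing the data) and -0.0226 to 0.0391 with 1 animal or cage left out. In HF-fed offspring it was 0.00107 with the set term, 0.00204 within the first set and -0.0706 to 0.0334 with 1 left out. Its interaction was 0.0128 with the set term, 0.0465 within the first set and, without that heart, 0.000751, and -0.0822 to 0.0177 with 1 left out. Its averaged maternal difference was -0.0046 with the set term, -0.0212 within the first set, -0.00229 without hearts with signal of another tissue, -0.0284 with the atrial covariate and -0.00988 without that heart, and -0.0295 to 0.0319 with 1 left out. For Scn7a the averaged maternal difference was -0.0279 within the second set, -0.00579 with the atrial covariate and -0.0119 to 0.0352 with 1 left out. With background subtracted, the post-weaning differences of Scn7a were -0.41 in offspring of LF-fed dams and -0.23 averaged, and that of Scn10a was -0.18 in offspring of HF-fed dams.

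The counts of probes that passed moved more. In offspring of LF-fed dams, the 344 between post-weaning diets were 146 with no filter on dim probes, 63 and 0 within the 2 sets of arrays, 10 without hearts with signal of another tissue, 824 with the atrial covariate, 212 without the LF_LF heart highest in Scn4b, and 33 to 663 with 1 animal or cage left out. In offspring of HF-fed dams, the 109 were 22 and 1 within the sets, 25 without hearts with signal of another tissue, and 31 to 131 with 1 left out. The averaged 947 were 624 with no filter, 4 within the second set and 275 without those hearts, and 583 to 1200 with 1 left out. For the maternal diet in LF-fed offspring, the 5 were 2 with no filter, 0 within the second set and without those hearts, 22 with the atrial covariate, 3 in a fit on all 40 arrays, and 0 to 6 with 1 left out. In HF-fed offspring, the 0 were 4 with the set term and 0 to 28 with 1 left out. The averaged 49 were 25 and 0 within the sets, 0 without those hearts, and 17 to 94 with 1 left out. Fits within a set or without those hearts hold fewer samples, and the smallest group within a set has 3 hearts. Within the sets, calls of Etv1, Cxadr and, in the pairwise comparisons, Slc12a2 and Kcne1 were lost. Replicate numbers are animal numbers and occur in 1 group each, so hearts of different groups were tied by cage. With cage as a random block, the post-weaning difference of Scn4b was 1.17 in offspring of HF-fed dams and 1.01 in offspring of LF-fed dams.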

Other observations

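Summed endothelial markers and Scn4b varied together among LF_LF hearts (r = 0.860 over 10 hearts, among them the heart at 543.4, which was highest in both), with r of -0.0453 in HF_HF, 0.114 in LF_HF and 0.358 in HF_LF hearts. The difference between groups was not tested. Of the 14 marker lists, 5 had a negative r with Scn4b in all 4 groups: fibroblast, smooth muscle and pericyte, Schwann cell and nerve, conduction system and ventricular myocyte. For fibroblast markers r was -0.493 in HF_HF, -0.264 in LF_HF, -0.723 in HF_LF and -0.704 in LF_LF hearts, and for smooth muscle and pericyte markers -0.0836, -0.291, -0.693 and -0.654. These values are descriptions over 10 hearts a group that share their normalisation, among 56 such values, and were read after the data were seen.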
